A study of Gallus gallus with 6 samples.

Results

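The small leucine-rich proteoglycans are a family of secreted proteins built around leucine-rich repeats. This account covers the 10 family genes DCN, LUM, OGN, FMOD, KERA, PRELP, ASPN, EPYC, PODN and OMD, taken by gene name from the 24881 Ensembl genes listed in all 6 tables of an RNA sequencing study of chicken muscle cells. All 10 were found, each in 1 row; the rule used names only, but the family was chosen with earlier results of these data known. The study compared proliferating myoblasts with differentiated myotubes, 3 libraries of each. Both groups were primary cells from chicken embryo skeletal muscle at passage 1. The growth medium was RPMI-1640 with 15% FBS, and myotubes were obtained by moving the cells to RPMI-1640 with 2% horse serum. Both media held 2% pen/strep, so serum kind and amount changed together with the cell stage and cannot be told apart from it. The sources used here do not give strain, embryo age, time in differentiation medium or any purification of the cells. Nothing in the labels tells whether 3 libraries came from different embryos or dishes, so the p-values speak of the variation among these 6 libraries, and that variation may be technical.

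Most of these proteins bind collagen fibrils in the matrix between cells, and they influence how fibrils assemble and how thick they grow. Several also bind growth factors of the TGF-beta family. In skeletal muscle and its connective tissue decorin is the best known, and it has been described as binding both TGF-beta and myostatin, a secreted factor that limits muscle growth. Decorin carries a chondroitin or dermatan sulfate chain, lumican, fibromodulin and keratocan can carry keratan sulfate, and PRELP usually carries no such chain. Connective tissue cells are the usual source of these proteins, and in bulk RNA fewer cells of a type and less RNA per cell cannot be told apart.

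The libraries held 16052542 to 20981337 counted reads in myoblasts and 21893152 to 23519295 in myotubes. Muscle genes moved as a mixed set, with 6 of 9 tested markers higher in myotubes and 3 lower (median log2 fold change 1.35). MYOM2, an M-band protein of the sarcomere, rose 16.7-fold and MYF5, a regulator of early myogenic cells, fell 11.5-fold (edgeR quasi-likelihood test, adjusted p 6.7e-09 and 1.2e-08). TNNT3 rose 5.32-fold and MYOD1 fell 2.39-fold (edgeR adjusted p 8.3e-09 and 1.6e-07). Of the 12808 genes over the minimum of 1 FPKM, averaged over the 6 libraries, 72.5% passed the test at an adjusted p under 0.05. The share higher in myotubes was 36.7% and the share lower was 35.7%. These high shares are the background for every count given here. Values after ± are standard deviations over 3 libraries except where a standard error (SE) is named.

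Levels between genes are given as FPKM, which scales reads to both gene length and library size. In myoblasts PRELP had the highest mean level of the family at 342 FPKM, ahead of DCN at 299.6 and LUM at 85.2. In myotubes the order was DCN at 672 FPKM, LUM at 286 and PRELP at 217. The ranges of these 3 genes did not overlap in either group, so the exchange of PRELP and DCN at the top was larger than the spread between libraries. The order of LUM and PRELP in myotubes depends on the gene length used. The deposited FPKM of DCN, LUM, OGN, KERA and EPYC implies shorter genes than the tables list, and with the listed lengths LUM had 217 ± 30.5 FPKM (197 to 252) and PRELP 217 ± 4.0 (212 to 220) in myotubes, so these 2 overlapped. Among all 24881 genes ranked by mean FPKM, DCN went from place 373 to place 150, LUM from 1395 to 293 and PRELP from 320 to 405.

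**Figure D1:**
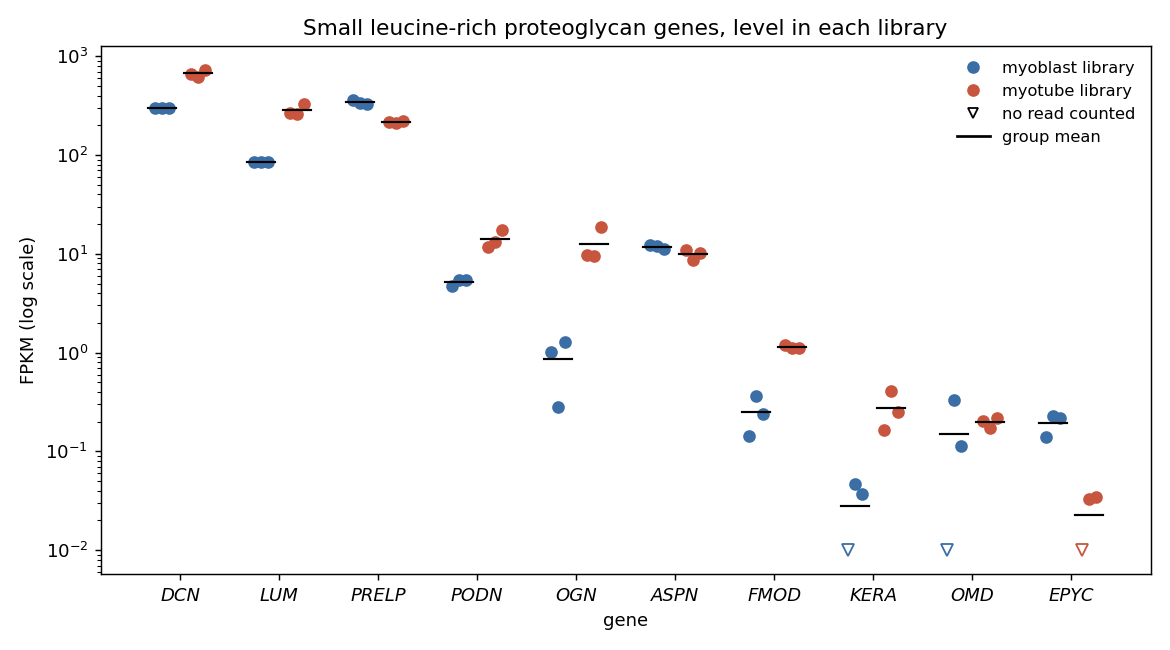
FPKM of each of the 10 genes in each library, on a log scale, with a bar at each group mean and a triangle for a library with no read. DCN, LUM and PRELP lie well above the other 7 genes in both groups, and KERA, OMD and EPYC stay under 0.5 FPKM in every library.

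The other 7 genes were far lower. ASPN (11.8 FPKM) and PODN (5.22 FPKM) followed in myoblasts, each apart from its neighbours in the order. OGN, FMOD, EPYC, OMD and KERA then lay at 0.858 FPKM or less, and each of these overlapped the next one in its range over libraries. In myotubes PODN (14.1 FPKM), OGN (12.6) and ASPN (9.96) followed the leading 3 genes. OGN overlapped both of the others in range, while PODN (11.6 to 17.3) and ASPN (8.75 to 11.0) did not overlap. With the listed length OGN was at 9.95 FPKM, level with ASPN. FMOD came next at 1.14 FPKM, apart from both neighbours, and KERA (0.274) and OMD (0.198) overlapped; with the listed length KERA was at 0.144, below OMD. EPYC was last at 0.0225 FPKM.

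Of the 10 genes, 6 passed the minimum of 1 FPKM. In the test across all 12808 genes 4 of them rose in myotubes (DCN, LUM, OGN and PODN) and 2 fell (PRELP and ASPN), against the background of 72.5% of genes called. In all 6 the CPM values of the 2 groups did not overlap, which held for 76.1% of tested genes (38.6% higher in myotubes and 37.5% lower). OGN passed the minimum through its myotube level alone, so its presence among the tested genes already required a difference. In the lists below the same holds, in 1 direction or the other, for OPTC, CSGALNACT1, COL14A1, TLL2, TNMD and THBS4, which were under 1 FPKM in 1 group. FMOD, KERA, EPYC and OMD were read from a fit of all 20031 genes with any count, in which 52.7% of genes passed the test, with 27.8% of genes higher in myotubes and 25% lower. Counting from that fit, 6 of the 10 genes were higher in myotubes, 3 were lower and 1 was not called. KERA, EPYC and OMD rest on few reads.

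**Figure D2:**
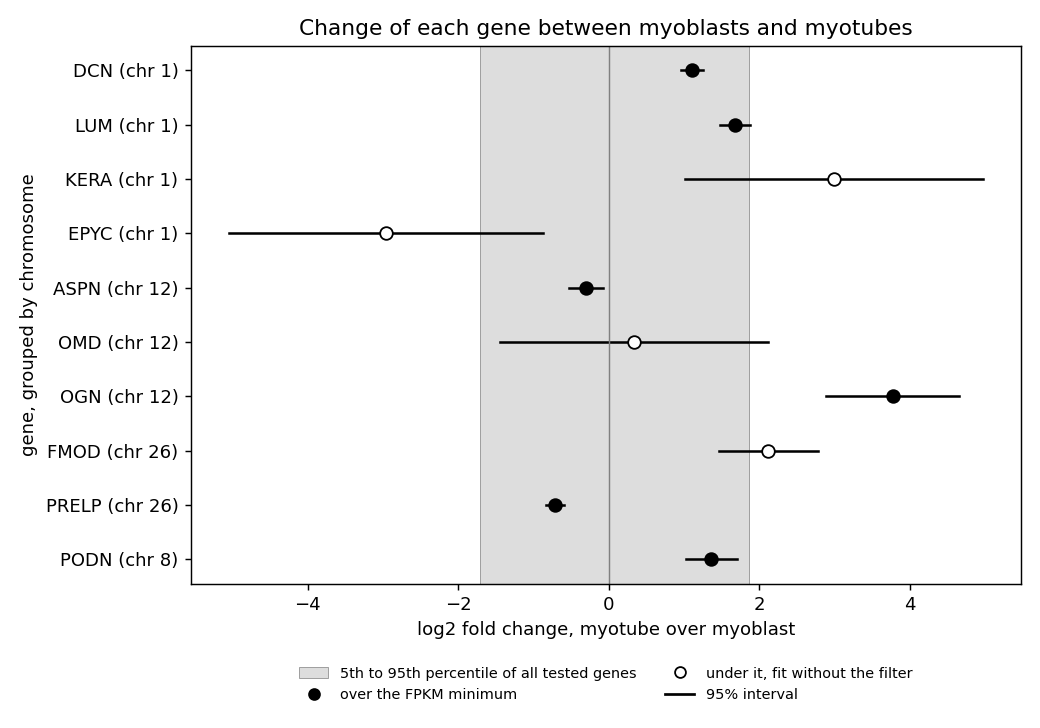
Fold change of each gene on the log2 scale, myotube over myoblast, with its 95% interval; filled points are genes over the FPKM minimum and open points come from the fit without it. OGN lies with its whole interval above the band that holds the middle 90% of tested genes (-1.71 to 1.86). The point of FMOD (2.12, interval 1.46 to 2.78) is above the band too. The points of KERA (2.99) and EPYC (-2.96) are also outside it. The wide bars of KERA, EPYC and OMD show how little their counts fix.

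DCN encodes decorin, the collagen-binding proteoglycan described above. Its gene (ENSGALG00000011274) is listed on the minus strand of chromosome 1 at 44019260 to 44058954. CPM values, which are read counts scaled to library size with TMM factors, were 636, 633 and 645 in the myoblast libraries and 1377, 1259 and 1469.9 in the myotube libraries. All 3 myotube libraries lay far above all 3 myoblast libraries, and the myoblast values were nearly equal. The means were 638 ± 6.42 (SD, n = 3) and 1369 ± 106 CPM, a log2 fold change of 1.10 with a standard error of 0.06 and a 95% interval of 0.96 to 1.25. That is a 2.15-fold rise (edgeR adjusted p 1.8e-07). A change at least this high was seen in 12.7% of tested genes, so the rise of DCN was not rare in these libraries.

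LUM encodes lumican, a keratan sulfate proteoglycan that also binds collagen fibrils. It lies beside DCN on the minus strand of chromosome 1 (ENSGALG00000011271, 43987396 to 43999595). Its CPM was 152, 150.2 and 155 in the myoblast libraries and 459, 443 and 566 in the myotube libraries. The groups did not overlap, and the third myotube library was the highest of the 6. From 152 ± 2.34 to 489 ± 66.7 CPM (SD, n = 3) the log2 fold change was 1.68 with a standard error of 0.09 (95% interval 1.48 to 1.88), a 3.21-fold rise (edgeR adjusted p 9e-08). At least as large a rise was seen in 6.13% of tested genes. The intervals of LUM and DCN did not overlap, and the FPKM ratio of DCN to LUM went from 3.52 ± 0.0188 to 2.36 ± 0.169 (SD, n = 3).

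OGN encodes osteoglycin, also called mimecan, a small member known from bone, cornea and muscle. It is listed on the plus strand of chromosome 12 (ENSGALG00000026736, 3424659 to 3435067). The reads counted were 31, 9 and 51 in the myoblast libraries and 436, 418 and 771 in the myotube libraries. In CPM these were 1.99, 0.561 and 2.56 against 18.7, 18.1 and 34.9. Every myotube library exceeded every myoblast library, while the second myoblast library was the lowest and the third myotube library stood above the other two. The spread within groups was wide for this gene. Its coefficient of variation was 60.5% in myoblasts and 39.9% in myotubes, above the 18.2% and 4.30% that counting alone gives. The log2 fold change was 3.77 with a standard error of 0.39 (95% interval 2.89 to 4.65), or 13.6-fold with an interval of 7.40 to 25.1 (edgeR adjusted p 1.2e-05). Only 111 of the tested genes, 0.867%, had a change as high or higher.

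PODN encodes podocan, a more distant member of the family. It stands apart from the others on chromosome 8, plus strand (ENSGALG00000021869, 24634400 to 24653942). CPM was 8.55, 9.91 and 10 in myoblasts and 20.4, 22.9 and 30.0 in myotubes. The lowest myotube library lay above the highest myoblast library. The mean rose from 9.48 ± 0.814 to 24.4 ± 4.95 CPM (SD, n = 3), 2.57-fold, with a log2 fold change of 1.36 ± 0.15 (SE) and an edgeR adjusted p of 1.8e-05. A rise at least as high was found in 9.12% of tested genes.

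PRELP, a heparin-binding and collagen-binding member known from cartilage and basement membranes, moved the opposite way. It is listed on the plus strand of chromosome 26 (ENSGALG00000034456, 5170534 to 5172975). CPM was 414, 397 and 393 in myoblasts and 247, 236 and 245 in myotubes. Both groups were tight and did not overlap. PRELP fell from 401 ± 11.1 to 243 ± 6.02 CPM (SD, n = 3), 1.65-fold, with a log2 fold change of -0.72 ± 0.05 (SE, 95% interval -0.84 to -0.60) and an edgeR adjusted p of 9.2e-07. A fall as large or larger was seen in 17.2% of tested genes.

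ASPN is the name of asporin, a member that binds collagen and TGF-beta and has a run of aspartic acid residues in mammals. The row is on the plus strand of chromosome 12 (ENSGALG00000004722, 3382143 to 3397878). CPM was 28.0, 27.8 and 26.1 in myoblasts and 24.6, 19.2 and 22.3 in myotubes, so the groups were apart but by little. The mean went from 27.3 ± 1.04 to 22.0 ± 2.70 CPM (SD, n = 3), 1.24-fold lower, with a log2 fold change of -0.31 ± 0.10 (SE) and an edgeR adjusted p of 0.019. The call was lost on the log2(FPKM + 1) scale (adjusted p 0.056) and without either the second myoblast library (0.058) or the second myotube library (0.077). Identity is uncertain too, because the RefSeq gene order of assembly GRCg7b gives the name BGN (biglycan, the closest relative of decorin) to the gene in this place, between ECM2 and OMD. That RefSeq table has 0 rows named ASPN, and 0 rows of the deposited tables are named BGN.

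FMOD encodes fibromodulin, which binds collagen and is abundant in tendon and cartilage. It had 6, 16 and 13 reads in myoblasts and 73, 67 and 64 in myotubes. The groups were well apart, with the myotube libraries close together. In CPM the values were 0.386, 0.997 and 0.653 against 3.14, 2.90 and 2.90. The fit without a minimum gave a log2 fold change of 2.12 with a standard error of 0.31 (95% interval 1.46 to 2.78), 4.34-fold, with an edgeR adjusted p of 3.1e-05. FMOD lies on the minus strand of chromosome 26 at 5133650 to 5140211 (ENSGALG00000034067).

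The other 3 genes were close to the limit of detection at this depth. KERA, keratocan of the cornea, had 0, 1 and 1 reads in myoblasts and 5, 12 and 7 in myotubes. Its pooled rate was 9.40 times higher in myotubes, with an exact 95% interval of 2.33 to 82.1 that covers counting error only. The fit without a minimum called it at an edgeR adjusted p of 0.013, which became 0.071 without the second myotube library. EPYC, epiphycan of growth cartilage, had 3, 5 and 6 reads in myoblasts and 0, 1 and 1 in myotubes. The pooled rate was 0.112 of that in myoblasts (exact 95% interval 0.0123 to 0.487), and the edgeR adjusted p of 0.018 became 0.053 with DESeq2, 0.055 without the third myoblast library and 0.064 without the first myotube library. OMD, osteomodulin of bone, had 0, 7 and 3 reads in myoblasts and 6, 5 and 6 in myotubes. Its groups overlapped and it was not called (log2 fold change 0.34, 95% interval -1.44 to 2.12, edgeR adjusted p 0.75), an interval wide enough to hold a large change in either direction.

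The summed RNA of the family was higher in myotubes, and its make-up shifted. The summed level of the 10 genes was 763, 739.7 and 735 FPKM in myoblasts and 1184, 1129 and 1326 FPKM in myotubes. All myotube libraries were above all myoblast libraries. The means were 746 ± 14.7 and 1213 ± 101 FPKM (SD, n = 3), which is 0.101% and 0.178% of all FPKM. With 3 libraries a group the exact permutation test cannot go below a two-sided p of 0.1, and it gave 0.1 here. The rise of the summed level rests on DCN (mean 299.6 FPKM in myoblasts and 672 in myotubes) and LUM (85.2 and 286). PRELP went the other way, from 342 to 217 FPKM.

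DCN, LUM and PRELP together made up 97.5% ± 0.0758 of the summed FPKM in myoblasts and 96.9% ± 0.398 in myotubes (SD, n = 3). Within that share PRELP went from 46.8, 45.8 and 45.1% to 18.4, 18.8 and 16.6%. DCN went from 39.6, 40.2 and 40.7% to 56.4, 55.2 and 54.7%. LUM took a larger part, from 11.2, 11.4 and 11.6% to 22.4, 23.1 and 25.1%. None of these 3 shares overlapped between groups, and each gave the smallest exact permutation p that the design allows, 0.1.

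The balance of the leading pair shows the shift most simply. The FPKM ratio of DCN to PRELP was 0.846, 0.878 and 0.903 in myoblasts and 3.06, 2.94 and 3.30 in myotubes, so DCN was below PRELP in each myoblast library and above it in each myotube library. The means were 0.876 ± 0.0287 and 3.10 ± 0.184 (SD, n = 3). The lengths implied by the deposited FPKM were 2043 bases for DCN, 1716 for LUM and 1903 for OGN, against 2573, 2266 and 2413 in the tables. With the listed lengths the ratio was 0.695 and 2.46, and DCN was again below PRELP in each myoblast library and above it in each myotube library.

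**Figure D3:**
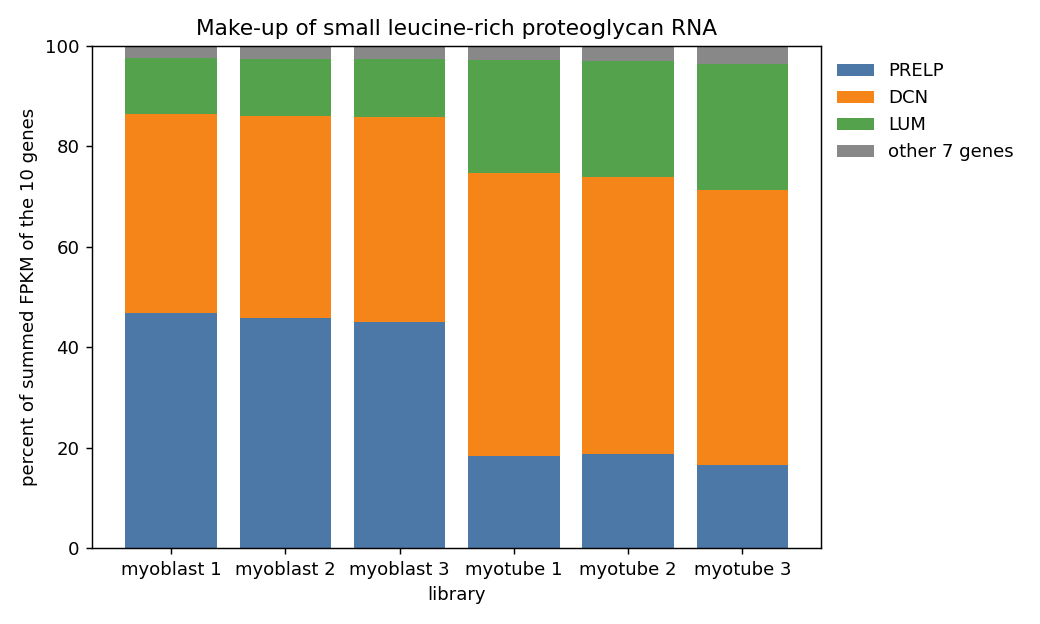
Percent of the summed FPKM of the 10 genes taken by PRELP, DCN, LUM and the other 7 genes together in each library. PRELP takes 45.1 to 46.8% in myoblasts and 16.6 to 18.8% in myotubes, and DCN and LUM take more in each myotube library.

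Myotube libraries differed among themselves. The third myotube library was the highest of the 3 for all 4 genes that rose (DCN, LUM, OGN and PODN). The 2 that fell, PRELP (247 CPM) and ASPN (24.6 CPM), were highest in the first. FMOD and KERA, higher in the fit without a minimum, were highest in the first (3.14 CPM) and the second (0.519 CPM) myotube library. The third library was also the highest for 6 of the 8 fibroblast markers that rose, for 48.7% of the 4706 genes called higher and for 37.3% of all tested genes. Without that library all 4 genes were called, as they were without any other single library.

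All of the genes except PODN sit close to another family gene. On chromosome 1 EPYC, KERA, LUM and DCN follow one another on the minus strand within 133.8 kb, with 21924, 7470 and 19664 bases between them. In that row EPYC was lower and KERA higher in myotubes, both on few reads, and LUM and DCN were higher. On chromosome 12 ASPN, OMD and OGN follow ECM2 on the plus strand, with 12935, 16491 and 8242 bases between them. On chromosome 26 FMOD and PRELP lie within 39.3 kb with 1 gene without a symbol between them, and OPTC follows PRELP after 3877 bases. PODN, on chromosome 8, has no family gene beside it.

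On chromosome 12 neighbours on the same strand moved in different directions. ECM2, a leucine-rich matrix protein next to ASPN, had 16.7, 18.4 and 15.3 CPM in myoblasts and 144, 119 and 147 in myotubes. It was 8.15-fold higher in myotubes, with a log2 fold change of 3.03 ± 0.10 (SE) and an edgeR adjusted p of 5.5e-09. The row named ASPN beside it was 1.24-fold lower, OMD was not called, and OGN was 13.6-fold higher. On chromosome 26 PRELP and OPTC (opticin, a leucine-rich protein of the eye), both on the plus strand, fell, while FMOD on the minus strand was higher. OPTC had 2.51, 2.18 and 3.57 CPM in myoblasts and 0.687, 0.864 and 0.453 in myotubes (log2 fold change -2.04 ± 0.31 SE, edgeR adjusted p 2e-04).

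All 4 genes on chromosome 12 lie inside CENPP, a centromere protein gene on the minus strand (3334370 to 3451194). CENPP fell from 21.0 ± 1.86 to 4.76 ± 0.147 CPM (SD, n = 3), with a log2 fold change of -2.14 ± 0.11 (SE) and an edgeR adjusted p of 8.3e-08. No source used here gives the strand setting of the read counting. Reads of ECM2, ASPN, OMD and OGN therefore cannot be told apart from reads of CENPP with certainty. ECM2 and OGN rose where CENPP and ASPN fell, and the part of CENPP reads in these values was not tested. Beyond the family, ATP2B1, a calcium pump gene 469966 bases from EPYC, fell (log2 fold change -0.81, edgeR adjusted p 4.5e-06). NOL8, a nucleolar protein gene 19043 bases from OGN, rose (0.38, adjusted p 0.0011). SCP2, a lipid carrier gene beside PODN, was slightly lower (-0.17, adjusted p 0.011), a call lost in 7 of 17 alternative settings, 1 of which turned its direction. SLC1A7, a glutamate transporter gene on the other side of PODN, had a mean of 0.246 CPM in myoblasts and 0.236 in myotubes and was under the FPKM minimum.

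**Figure D4:**
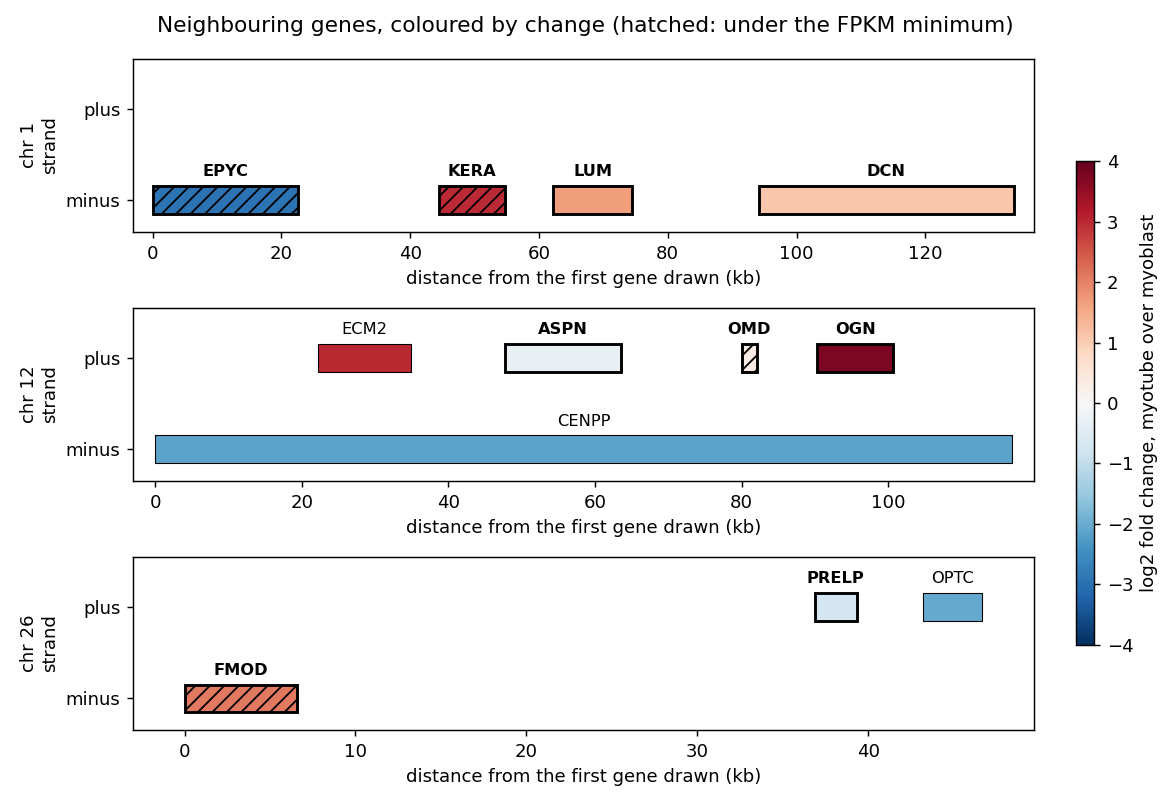
The family genes on chromosomes 1, 12 and 26 (bold) and the neighbours ECM2, CENPP and OPTC, drawn to scale by distance from the first gene drawn. Colour is the log2 fold change, myotube over myoblast. KERA (on few reads), LUM and DCN share a strand and are all higher, while EPYC (on few reads), on that same strand, is lower. PRELP and OPTC share a strand and are both lower, and ECM2, ASPN and OGN share a strand and differ in direction. ECM2, ASPN, OMD and OGN lie within the span of CENPP on the other strand. Hatched genes are under the FPKM minimum.

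For each tested member the 2 genes with the most similar profile were found, by the root mean square difference of log2 CPM centred on each gene's mean, over 6 libraries and 8700 genes with a symbol. Such a profile rests mainly on 1 difference between 2 groups. For DCN they were RSF1 (difference 0.029), a chromatin remodelling factor, and CNR1 (0.046), a cannabinoid receptor. For LUM they were PTPRK (0.054), a receptor phosphatase, and COL6A1 (0.059), a chain of the collagen VI that surrounds muscle fibres. COL6A1 had 509 ± 11.1 CPM in myoblasts and 1620.0 ± 124 in myotubes (SD, n = 3). OGN had no close match, since its nearest genes SLC7A11, a cystine transporter, and HTR7, a serotonin receptor, differed by 0.501 and 0.504. PRELP was nearest to NUDC and PNRC2 (both 0.021), ASPN to STX2 (0.045) and NACC2 (0.046), and PODN to KCTD21 (0.095) and APOA1 (0.096).

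Other leucine-rich matrix proteins moved in both directions. Of 5 tested, 3 rose, 1 fell and 1 was not called, with a median log2 fold change of 0.74 against 0.01 over all tested genes. Besides ECM2, TSKU (tsukushi, first described in chicken) had 31.1 ± 0.595 CPM in myoblasts and 78.9 ± 3.37 CPM in myotubes (SD, n = 3), a 2.53-fold rise with an edgeR adjusted p of 7.8e-08. OPTC was the gene that fell.

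Enzymes that build chondroitin and dermatan sulfate chains, such as the one on decorin, were split. Of 18 tested, 7 rose, 5 fell and 6 were not called, with a median log2 fold change of 0.09. CSGALNACT1, which starts the chondroitin chain, had 3.34, 3.43 and 3.72 CPM in myoblasts and 45, 45.7 and 47.1 in myotubes. It was 13.1-fold higher in myotubes, with a log2 fold change of 3.71 ± 0.09 (SE) and an edgeR adjusted p of 1e-09. UST, which adds sulfate to uronic acid, rose 3.74-fold (adjusted p 7.2e-07), and DSE, the epimerase that makes dermatan sulfate, rose 1.75-fold (6.6e-06). XYLT1, which attaches the first sugar, rose 1.67-fold (0.0033). B4GALT7 and CHSY1, in the same list, fell 1.62-fold and 1.28-fold (edgeR adjusted p 6.6e-05 and 0.0031). PAPSS2, which makes the sulfate donor, fell from 12.8 ± 2.05 to 4.18 ± 0.120 CPM, 3.06-fold (edgeR adjusted p 3.9e-06), and CHST15, a sulfotransferase, fell 1.68-fold (7.3e-04). The listed sister genes of PAPSS2 and CSGALNACT1 changed less. PAPSS1 fell 1.19-fold, from 148 ± 4.28 to 124 ± 7.12 CPM (edgeR adjusted p 0.0027). CSGALNACT2, at 41.6 ± 3.20 CPM in myoblasts and 36.8 ± 3.51 in myotubes, was not called (edgeR adjusted p 0.11).

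All 7 tested genes for keratan sulfate chains changed, 4 upward and 3 downward, with a median log2 fold change of 0.47. Of the 11 genes in this list 9 matched a gene name, and CHST1 and B3GNT7 were under the FPKM minimum. CHST1 had a mean of 0.583 CPM in myoblasts and 0.104 in myotubes, and B3GNT7 had 0.717 and 0.219. B4GALT1 and B4GALT4, galactosyltransferases, each rose 1.61-fold (edgeR adjusted p 4.5e-06 and 2.5e-06). ST3GAL2, a sialyltransferase, fell 1.79-fold and B3GNT2, which extends the chain, fell 1.61-fold (5.5e-07 and 9.7e-06).

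Collagens of the fibrils these proteoglycans bind, collagens on fibril surfaces and cross-linking enzymes, taken as 1 list, mostly rose. Of 8 tested, 6 rose, 1 fell and 1 was not called, with a median log2 fold change of 1.17. Only 9 of the 16 entries matched a gene name, and COL1A1 was not among them. COL5A1 was the gene not called, at 2100.1 ± 104 CPM in myoblasts and 2179.9 ± 104 in myotubes (edgeR adjusted p 0.44). COL12A1, a collagen on fibril surfaces, went from 805 ± 98.5 to 3229 ± 374 CPM, 4.01-fold (edgeR adjusted p 8e-08). COL1A2 went from 2179 ± 17.5 to 6469 ± 453 CPM, 2.97-fold (1.1e-08), and COL14A1 rose 5.68-fold from 1.83 ± 0.440 CPM (2.6e-05). COL3A1 rose 1.43-fold (5.8e-05). LOX, a cross-linking oxidase, was the 1 gene lower, 1.14-fold at an adjusted p of 0.049, a call lost in 12 of 17 alternative settings.

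All 15 tested growth factors and receptors that these proteoglycans bind were called, 9 upward and 6 downward. Their median log2 fold change was 0.34, and 72.5% of all tested genes were called. Of the 20 entries in this list 17 matched, and KDR and ITGA2 were under the FPKM minimum. TGFB1 had 698, 747 and 805 CPM in myoblasts and 259.6, 225 and 176 in myotubes, a 3.41-fold fall (edgeR adjusted p 6.6e-07). TGFB3 fell 2.61-fold (1.5e-08), CTGF, a matrix growth factor, fell 2.58-fold (1.3e-08) and MET, the HGF receptor, fell 2.70-fold (1.8e-07). The TGF-beta receptors TGFBR1 and TGFBR2 rose 1.37-fold and 1.26-fold (edgeR adjusted p 0.00014 and 0.01). MSTN, myostatin, went from 4.38 ± 0.964 to 14.3 ± 0.154 CPM, 3.31-fold higher (4.2e-06). LRP1 and EGFR, receptors in the same list as MET, rose 3.26-fold and 3.15-fold (edgeR adjusted p 4.9e-09 and 2.8e-07). Receptors of this list thus moved in both directions. The innate immune receptors TLR2 (listed as TLR2A) and TLR4, both bound by biglycan, moved in opposite directions, 2.36-fold higher and 2.01-fold lower (9.8e-07 and 5.5e-06).

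Proteases that cut these proteoglycans were evenly split, with 3 of 8 tested higher, 3 lower and 2 not called (median log2 fold change 0.14). MMP2, a gelatinase that cleaves decorin, had 647, 637 and 630.5 CPM in myoblasts and 3649, 3784 and 3752 in myotubes, 5.84-fold higher (edgeR adjusted p 4.6e-10). TLL1, a relative of the protease BMP1, rose 2.02-fold (9.9e-05). MMP9 fell 3.56-fold (1e-07) and MMP13 fell 1.91-fold (3.9e-04).

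**Figure D5:**
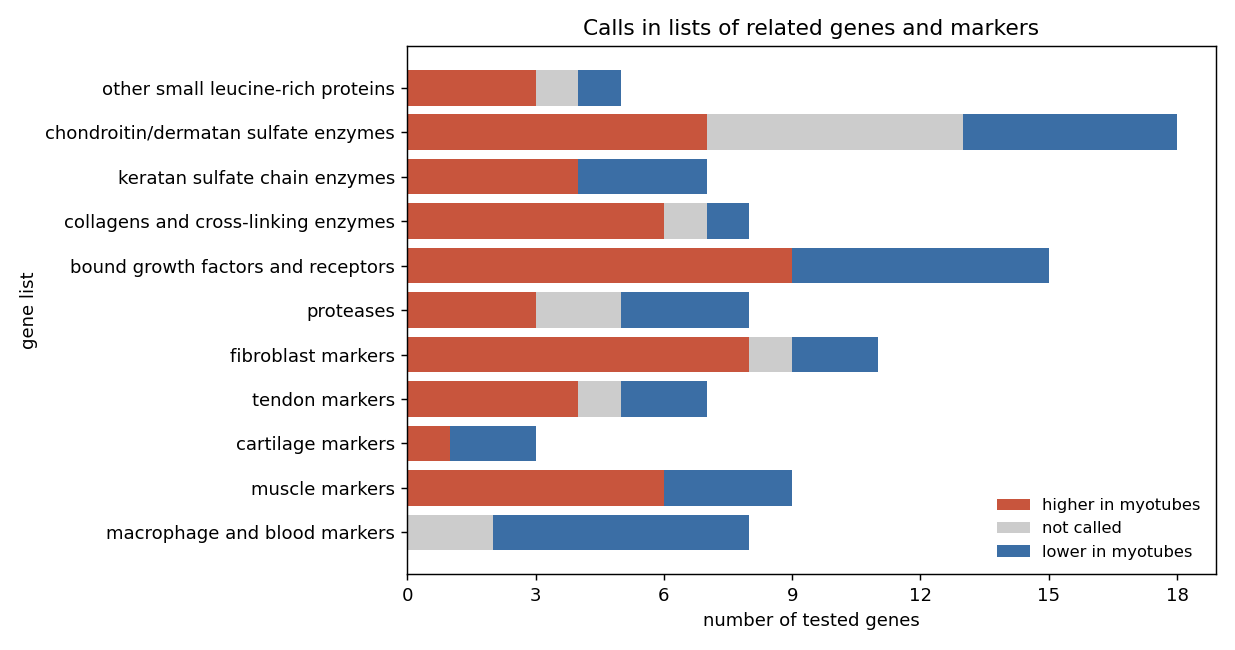
Number of tested genes higher in myotubes, not called and lower in myotubes in each list of related genes and of cell type markers. Most lists hold more genes that rose than fell, among them collagens and fibroblast, tendon and muscle markers. Proteases are even, and cartilage markers hold 1 that rose and 2 that fell. Macrophage and blood markers hold 6 that fell and 0 that rose. Over all tested genes the shares are 36.7% higher and 35.7% lower.

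Most tested fibroblast markers, but not all, were higher in myotubes. Of 11 tested fibroblast markers 8 rose, 2 fell and 1 was not called, with a median log2 fold change of 1.26. PDGFRA, a receptor of muscle-resident mesenchymal cells, rose from 16.0 ± 3.68 to 96.7 ± 14.1 CPM, 6.05-fold (edgeR adjusted p 2.3e-07), and FBLN1, fibulin, rose 13.1-fold (1.6e-09). PDGFRB rose 2.73-fold and OSR1 3.11-fold (7.3e-07 and 3.1e-05). TWIST1 fell 1.77-fold and VIM, vimentin, 1.58-fold (edgeR adjusted p 1e-05 and 1.3e-06). THY1 was the marker not called, at 942 ± 38.9 CPM in myoblasts and 896 ± 148 in myotubes. The summed level of the list was 5306 to 5446 FPKM in myoblasts and 5974 to 6461 FPKM in myotubes. The rise of this sum rests on COL1A2, with a mean of 776 FPKM in myoblasts and 2408 in myotubes. VIM, the largest part in myoblasts, fell from 3619 to 2388 FPKM, and without COL1A2 the sum is lower in myotubes. No marker was at 0 in all libraries, though TCF21 had 1, 0 and 1 reads in myoblasts and 0, 0 and 2 in myotubes. COL1A2 and COL3A1 stand in this list and in that of the collagens. The part of connective tissue cells in the changes of DCN, LUM, OGN and PODN was not tested.

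Tendon markers gave 4 genes higher, 2 lower and 1 not called of 7 tested, with a median log2 fold change of 1.35. SCX, scleraxis, the regulator that defines tendon cells, had 2.84 ± 0.515 CPM in myoblasts and 11.1 ± 1.13 CPM in myotubes, a 3.87-fold rise (adjusted p 2.5e-06), while THBS4 fell 5.92-fold and EGR1 fell 2.97-fold (1.4e-06 and 2e-08). Their summed level was 275 to 309.7 FPKM in myoblasts and 214 to 242 FPKM in myotubes. The fall of this sum rests on EGR1, with a mean of 136 FPKM in myoblasts and 48.0 in myotubes. Of 3 tested cartilage markers COMP rose 4.11-fold and SOX9 and SOX5 fell 1.89-fold and 1.95-fold (edgeR adjusted p 2.5e-07, 0.0022 and 0.0014). The list summed to 10.1 to 10.7 FPKM in myoblasts and 12.1 to 13.9 in myotubes. That rise rests on COMP, with a mean of 2.02 FPKM in myoblasts and 8.71 in myotubes. The other 5 matched cartilage genes were under the FPKM minimum, with a mean of 6.07 and 1.11 CPM for ACAN, 2.80 and 0.190 for COL9A1, 1.27 and 0.0725 for MATN1, 0.520 and 1.21 for SOX6 and 0.0503 and 0.0590 for MATN3 in myoblasts and myotubes. Macrophage and blood markers gave 6 of 8 tested genes lower and 0 higher, against 2 not called. C1QB and C1QC, parts of a complement protein made by macrophages, fell 8.97-fold and 8.51-fold (1.2e-09 and 8.7e-10), and the list summed to 657 to 692 FPKM in myoblasts and 144 to 151 in myotubes. The part of these cells in the fall of PRELP and ASPN was not tested.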

How the data were processed

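Total RNA extracted with Trizol was sequenced from 3 myoblast and 3 myotube libraries, grouped by their labels. Per the file headers, the authors deposited 1 table per library with raw read counts and FPKM values per gene; HISAT and HTSeq are named in the submitters' processing notes, without versions. The sources used here give neither the genome build nor the strand setting, so coordinates are as listed in the tables and no sequence is printed. Loci without an Ensembl identifier (2 to 2.12% of counts in myoblasts, 1.66 to 1.73% in myotubes) and 2 rows of annotation text per myotube table (0% of counts) were left out.

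Counts of genes with a mean of at least 1 FPKM (12808 of 24881) were tested with edgeR 4.0.16 in R 4.3.3 (TMM, quasi-likelihood F-test, two-sided, Benjamini-Hochberg over all tested genes, called under 0.05). The standard error is the log2 fold change divided by the root of F. Genes under the minimum were read from the same fit without it. CPM uses TMM library sizes, FPKM is as deposited, and p-values of shares are from exact permutation. The common biological coefficient of variation was 0.0975. Settings also tried were DESeq2 1.42.0, limma 3.58.1 on log2(FPKM + 1), log2(FPKM + 0.1), log2(TPM + 1) and quantile-normalized CPM, other size factors and filters, a replicate block, a threshold of 0.01 and each library left out. The test was tried on simulated counts. Intervals on pooled reads cover counting error only.

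The 10 members and the 11 lists (144 entries, 112 matched to a gene name or its synonym) were chosen with earlier results of these data known. Named genes are all members, the 2 called genes of each list with the largest rise and the 2 with the largest fall, the 2 nearest profiles of each tested member and the neighbours with a symbol. COL1A2, COL3A1, DSE, XYLT1, TGFB3, CTGF, EGFR, TLR2, TLR4, PDGFRB, OSR1, TCF21, TLL2, TNMD, ACAN, COL9A1, MATN1, SOX6 and MATN3 were added after their values were seen. So were THY1, PAPSS1, CSGALNACT2, CHST1, B3GNT7, B4GALT7, CHSY1, TGFBR1, TGFBR2, COL5A1, KDR and ITGA2. RefSeq names of GRCg7b served for gene order and for synonyms of listed genes. By synonym B4GALT7 was matched to B4GAL-T7, TGFBR1 to ChALK5, TLR2 to TLR2A and HBA1 to HBAA.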

Additional observations from a re-analysis of the deposited data

How the results depend on the processing

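Over 17 alternative settings DCN (1.05 to 1.28), LUM (1.57 to 1.85), OGN (2.85 to 4.22), PODN (1.19 to 1.47) and PRELP (-0.75 to -0.54) kept direction and call on the log2 scale, and 4 family genes were called higher in each setting with the FPKM minimum. The number called lower was 2, but 1 on log2(FPKM + 1), log2(FPKM + 0.1), log2(TPM + 1) and at a threshold of 0.01, and 1 to 2 with each library left out. ASPN was the gene lost, its log2 fold change running from -0.40 to -0.12 and its adjusted p from 0.0057 to 0.3 over the settings. Without a filter 9 family genes were called. FMOD kept its call in 8 settings (1.85 to 2.45). EPYC lost its call in 4 of 8, and OMD, not called, ran from -0.21 to 1.49 with each library left out, below 0 without the first myoblast library. SCP2 turned to 0.01 on log2(TPM + 1).

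In counts rather than FPKM the shift in share was 11.1 percentage points for DCN, 10.1 for LUM and -21.4 for PRELP, against 15.2, 12.1 and -28.0 in FPKM; with the listed lengths it was 17.4 for DCN and -29.9 for PRELP. The log2(TPM + 1) scale moved the median of all tested genes to 0.186 and gave 5794 genes higher and 3409 lower, against 4706 and 4577. The fit without a filter had a median of 0.123 over its own 20031 genes, a wider set than the 12808 tested genes. COL3A1 lost its call in 1 setting. Same-numbered libraries did not deviate together (correlations -0.035, 0.104 and -0.155); with the replicate block 8784 genes and the same number of family genes, 6, were called, and EPYC moved to an adjusted p of 0.066. KERA, EPYC and OMD, at 27 reads or fewer over 6 libraries, are limited by depth. Cell make-up of the cultures is unknown.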
